A study of Homo sapiens with 8 samples.

Results

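The EGF receptor family was taken as 9 genes, namely the receptors EGFR, ERBB2, ERBB3 and ERBB4 and the ligands AREG, EREG, HBEGF, TGFA and BTC. Members were found by the gene name that the array design gives a probe, and the 9 genes had 17 probes on an array that names 43317 genes. The ratio of a gene was read from its brightest probe. No spot of a member carried an outlier flag.

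The series holds 8 Agilent 2-colour arrays of 3 human cancer cell lines, and each array compared transfected cells, labelled with Cy5, with mock cells of the same line, labelled with Cy3. FaDu, a line of hypopharyngeal squamous cell carcinoma, received miR-99a-5p or miR-99a-3p. PC3, a prostate cancer line, received miR-99a-3p, miR-100-3p or 1 of the strands miR-150-5p and miR-150-3p, and PANC-1, a pancreatic cancer line, received si-FOXQ1-1 or si-FOXQ1-2, both siRNAs against the transcription factor FOXQ1. All transfections used the same lipid reagent, and the mock channels carried the label of no transfection, so the lipid and the small RNA cannot be told apart. No culture was labelled with an age, a time or a dose. Each condition had 1 array and no dye swap, so no ratio has a replicate check and no p-value is given.

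The receptors of this family are tyrosine kinases of the cell surface that act as pairs. EGFR and ERBB4 bind ligands and signal, ERBB2 binds no known ligand and serves as the preferred partner, and ERBB3 has a weak kinase and relies on its partner. The ligands are made as membrane proteins, are cut free by metalloproteases such as ADAM17, and act on the same or on neighbouring cells, mostly through the RAS-ERK and PI3K cascades. AREG, TGFA and EGF bind EGFR, and EREG, HBEGF and BTC bind EGFR and ERBB4. Squamous carcinomas often carry high levels of EGFR.

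The mature microRNAs are shown because the ratios of AREG and BTC differed between them. miR-99a-5p and -3p are the strands of 1 hairpin, and miR-100-3p comes from a related hairpin on another chromosome. The sequences are those of RefSeq on GRCh38.p14, written 5′ to 3′ with the seed, bases 2 to 8, in capitals. They lie at chr21:16539101-16539122 on the plus strand, at chr21:16539138-16539159 on the plus strand and at chr11:122152240-122152261 on the minus strand.
hsa-miR-99a-5p: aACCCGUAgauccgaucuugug
hsa-miR-99a-3p: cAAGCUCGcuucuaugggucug
hsa-miR-100-3p: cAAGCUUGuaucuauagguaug
Over their 22 bases miR-99a-3p and miR-100-3p differed at 5 positions, counted from 1 at the 5′ end, and 1 of these lay in the seed, C7U. The other differences were C9U, U10A, G16A and C20A. No seed of the sequences shown was shared.

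The arrays read the labelled lines as follows. All 7 squamous epithelium markers were above background in both FaDu mock channels. In PC3, 4 of 5 prostate luminal markers were above background in all mock channels, without KLK3, the prostate-specific antigen. The pancreatic duct markers KRT19 and SOX9 were above background in PANC-1, as in the other lines, and CFTR was not. SMAD4 was not above background in FaDu, the line in which it is known to be deleted, whereas CDKN2A, known to be deleted in PANC-1, was above background there at a log2 level of 8.45. Of 4 leukocyte and endothelial markers, 1 in FaDu, 2 in PC3 and 1 in PANC-1 were above background in all mock channels, with a summed log2 level of 6.17 to 7.15 over all channels. FOXQ1 was lower with both siRNAs, at a log2 ratio of −2.16 (spot error 0.29) with si-FOXQ1-1 and −2.12 (0.28) with si-FOXQ1-2.

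Mock levels were compared between the lines on the log2 scale of the Cy3 signal after quantile normalization of the average intensity between arrays. The mock channels of FaDu and of PANC-1 had a median SD of 0.056 and 0.048 over genes, against 0.059 between repeated spots of 1 array. For probes with 5 or more spots the SD of the probe mean was 0.025 in FaDu, above the 0.019 its spots give, and 0.019 in PANC-1. The SDs of FaDu and PANC-1 rest on 2 channels each, and the median of such an SD lies under the true spread. They therefore understate the spread beside values from 5 or more spots. The labels name no separate cultures, so each of these lines counted as 1 sample and no test between the lines was made. In PC3 the median SD was 0.103 over 4 channels, which is not on a par with the SDs of the other lines, and the channels fell into pairs. The channels of the miR-150-5p and miR-150-3p arrays differed by a median of 0.061, those of the miR-99a-3p and miR-100-3p arrays by 0.070, and channels of different pairs by 0.135 to 0.139, over 15862 genes. The labels do not say whether the pairs were separate cultures, and arrays of a pair lay side by side on the slide.

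Among the 8 members above background in Cy3 throughout at least 1 line, all had their highest mean mock level in FaDu. A member was counted between lines where the means were at least 2-fold apart and the channels did not overlap. FaDu and PC3 differed so in 6 of 8 members, against 42.0% of 21516 genes, FaDu and PANC-1 in 7 of 8, against 39.4%, and PC3 and PANC-1 in 7 of 8, against 33.2%. The median difference over the 8 members was 2.47 for FaDu minus PC3 and 2.29 for FaDu minus PANC-1, beside 0.07 and 0.04 over all genes tested. All 8 members lay higher in FaDu than in either other line, and no such order held between PC3 and PANC-1.

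**Figure D1:**
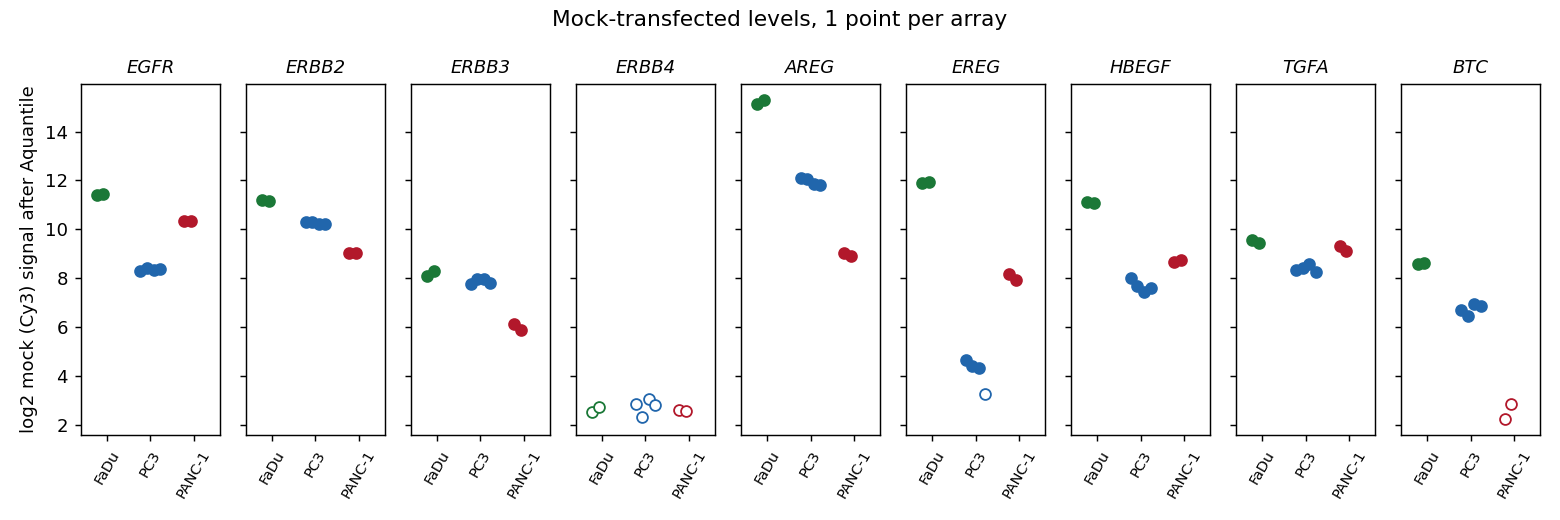
Log2 mock (Cy3) signal of the 9 genes in FaDu (green), PC3 (blue) and PANC-1 (red), 1 point per array, with open points where the signal was not well above background. FaDu lies highest for 8 genes, and ERBB4 is open in every line.

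Among the receptors, EGFR was at a log2 mock level of 11.39 and 11.43 in FaDu, at 10.33 and 10.36 in PANC-1 and at 8.28 to 8.40 in PC3. The lines did not overlap, and FaDu was 8.35-fold above PC3 and 2.09-fold above PANC-1. With another background correction (normexp), loess and Aquantile the log2 difference from PANC-1 went from 1.06 to 0.98, under the limit. With Cy3 scaled to its 75th percentile on each array it was 0.96. ERBB2 was at 11.17 and 11.19 in FaDu, at 10.21 to 10.32 in PC3 and at 9.03 and 9.05 in PANC-1. FaDu was 1.88-fold above PC3, under the 2-fold limit, and PC3 was 2.35-fold above PANC-1. With the mean over both ERBB2 probes these log2 differences went from 0.91 to 1.6 and from 1.23 to 0.31, so that the first passed the limit and the second no longer did. ERBB3 was at 8.08 and 8.28 in FaDu and at 7.78 to 7.96 in PC3, 1.23-fold apart, and at 5.87 and 6.12 in PANC-1, 4.55-fold below FaDu. These levels were read from a probe designed to the short transcript NM_001005915. Probes to the full-length transcript were not above background in PANC-1. With the mean over the ERBB3 probes the log2 differences went from 0.30 to 0.59 for FaDu minus PC3 and from 2.18 to 2.68 for FaDu minus PANC-1. ERBB4 was not well above background in any channel of any array by either of its 2 probes, and has no ratio here.

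Several ligands differed widely between the lines. AREG, amphiregulin, was at 15.14 and 15.31 in FaDu, at 11.83 to 12.09 in PC3 and at 8.90 and 9.03 in PANC-1. Its level in FaDu was 9.59-fold that in PC3 and 76.6-fold that in PANC-1. EREG, epiregulin, was at 11.90 and 11.92 in FaDu and at 7.91 and 8.19 in PANC-1, a 14.5-fold difference. In PC3 its level was 3.26 to 4.65, above background in 3 of 4 channels, so that the lines stood in the order FaDu, PANC-1 and PC3, unlike AREG.

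HBEGF, the heparin-binding ligand, was at 11.09 and 11.12 in FaDu, at 8.66 and 8.76 in PANC-1 and at 7.68 ± 0.24 (SD over 4 channels) in PC3. FaDu was 10.8-fold above PC3, and PANC-1 was 2.05-fold above PC3. The log2 difference of PC3 minus PANC-1 went from −1.03 to −0.81 with normexp, loess and Aquantile, which is not past the limit. It was −0.87 with the PC3 mock channels of the miR-150-5p and miR-150-3p arrays alone and −1.20 with those of the other pair. TGFA, transforming growth factor alpha, varied least of the ligands by its brightest probe. It was at 9.45 and 9.56 in FaDu, 9.12 and 9.31 in PANC-1 and 8.27 to 8.56 in PC3. FaDu and PANC-1 were 1.22-fold apart, which is not past the limit. A second, dimmer TGFA probe was above background in the mock channels of FaDu alone. With the mean over both probes the log2 difference of FaDu minus PANC-1 went from 0.29 to 1.52, past the limit. That of PC3 minus PANC-1 went from −0.82 to −0.04. BTC, betacellulin, was at 8.58 and 8.64 in FaDu and at 6.44 to 6.93 in PC3, 3.67-fold apart. It was not above background in PANC-1, where it was at least 18.8-fold lower than in FaDu and at least 5.12-fold lower than in PC3, against the lowest level above background there. With normexp, loess and Aquantile, which raises dim signals, the log2 differences from PANC-1 were 2.36 for FaDu and 1.12 for PC3, smaller than these bounds.

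On the transfection arrays, a member counted as detected where either channel was well above background, and as called where, in addition, its log2 ratio of transfected over mock was at least 1 or at most −1. The spot error beside a ratio is the error the scanner software gave that ratio, on the log2 scale, and covers 1 array only. Of 72 pairs of member and array, 61 were detected, 56 of them in both channels. Calls were made in 7 pairs lower and 1 pair higher, and 5 of these 8 were AREG, BTC and ERBB2 with miR-99a-3p.

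**Figure D2:**
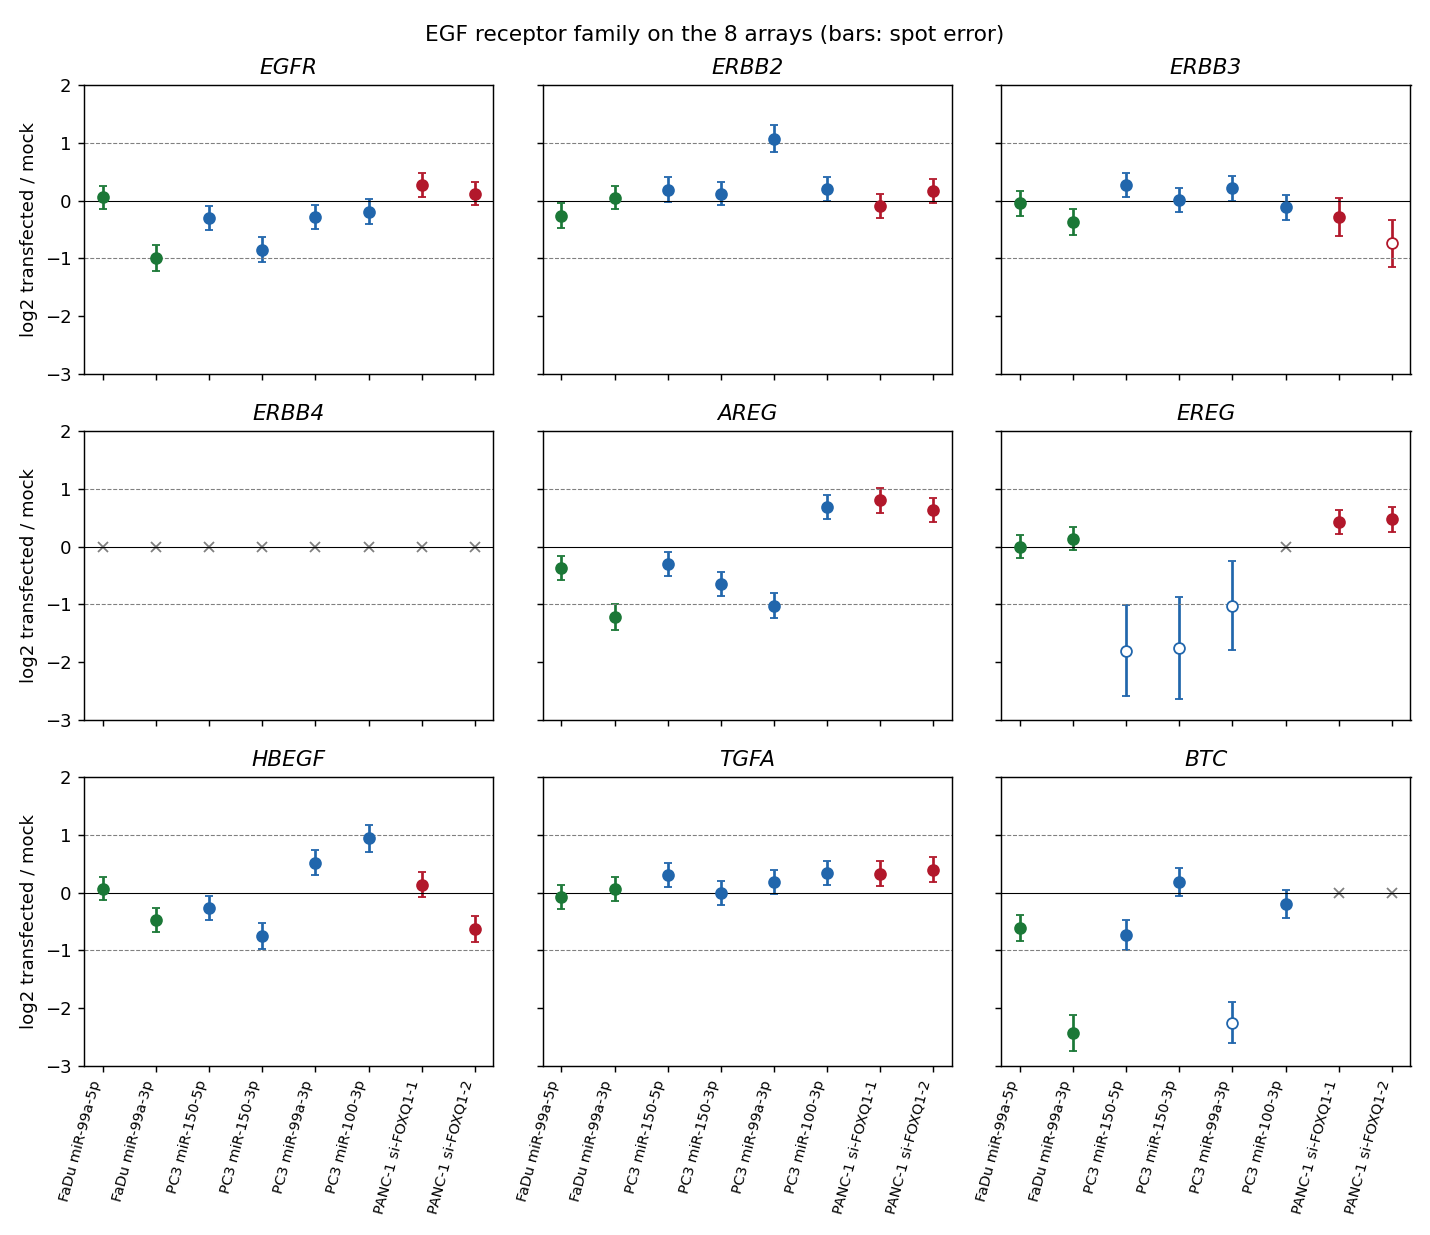
Log2 ratio of transfected over mock for the 9 genes on the 8 arrays, in FaDu (green), PC3 (blue) and PANC-1 (red), with the spot error as bars and dashed lines at the 2-fold limit. Open points have 1 channel not well above background, and crosses mark arrays with neither channel above it. AREG and BTC lie beyond the lower line in both lines that received miR-99a-3p.

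AREG and BTC were the members that were at least 2-fold lower with miR-99a-3p in both PC3 and FaDu. These are 2 of 8 members detected on both arrays, and 122 of 17478 genes, 0.698%, were at least 2-fold lower on both. Over all probes the log2 ratios of these arrays had a Pearson r of 0.03, and those of the 2 siRNA arrays in PANC-1 0.13. In each channel most gene spots were not well above background, so this r cannot show how much of the response was shared. In FaDu with miR-99a-3p, 2 of 8 detected members were lower and none was higher, against 9.37% and 8.25% of 19184 genes. In PC3 with miR-99a-3p, 3 of 8 were lower and 1 was higher, against 7.39% and 4.23% of 20545 genes. The third lower member in PC3 was EREG, whose ratio was not measured, as described with its signals. The median log2 ratio of the members was −0.42 in FaDu and −0.05 in PC3, beside −0.03 and 0.02 over all detected genes.

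AREG in FaDu gave a mock signal of 52292 and a signal of 22411 after miR-99a-3p, or −1.22 (spot error 0.23) as a log2 ratio. The PC3 array gave 5246 and 2595, or −1.02 (0.22). Mock cells were thus 2.33-fold and 2.02-fold above the transfected cells, and the ratio in PC3 lay beyond the limit by less than its spot error. With another background correction (normexp) and loess it was at −0.94, which is no call. The second and dimmer AREG probe read −1.22 (0.23) in FaDu and −1.14 (0.23) in PC3. The probes lie at chr4:75320518-75320577 and chr4:75318293-75318352 of hg19, on the plus strand, and their ratios stood within 0.12 of each other on all 8 arrays.

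On the other arrays AREG was not called, but its ratio was not near 0 on all of them. With miR-99a-5p, the other strand of the same hairpin, AREG in FaDu was at −0.37 (0.21). In PC3 it was at −0.65 (0.21) with miR-150-3p, with signals of 5251 and 3341, and at −0.30 (0.21) with miR-150-5p. With miR-100-3p it was at 0.68 (0.21), with a mock signal of 3303 and a transfected signal of 5275. AREG in PC3 therefore lay on opposite sides of its mock level with miR-99a-3p and with miR-100-3p, whose seeds differ at 1 base. Both PANC-1 arrays were above the mock level, at 0.80 (0.22) with si-FOXQ1-1 and 0.63 (0.21) with si-FOXQ1-2, from mock signals of 459 and 388. AREG mock levels of the PC3 pairs were 12.07 to 12.09 and 11.83 to 11.85, and against the mean of all 4 channels the ratio was −1.13 with miR-99a-3p and 0.55 with miR-100-3p.

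BTC in FaDu gave a mock signal of 497 and 92.1 after miR-99a-3p, a log2 ratio of −2.43 (0.31), the lowest ratio of any member on any array with both channels above background. With normexp and loess it was at −1.55 in FaDu and −1.08 in PC3, closer to 0 but still called. In PC3 its mock signal of 194 stood against 40.7 after miR-99a-3p, which was not well above background, and its deposited ratio was −2.25 (0.35). Against the lowest Cy5 signal called above background on that array, 45.8, BTC was at least 4.23-fold lower. Background was called spot by spot, and against the highest Cy5 signal that was not called above it, 73.4, the mock signal was 2.64-fold higher. The single BTC probe lies at chr4:75675838-75675897 of hg19, on the minus strand.

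BTC was not called on any other array. It was at −0.61 (0.22) in FaDu with miR-99a-5p, at −0.74 (0.26) in PC3 with miR-150-5p, at −0.19 (0.24) with miR-100-3p and at 0.18 (0.24) with miR-150-3p. The 2 arrays with miR-99a-3p therefore stood apart from the other 4 on which BTC was detected. In PANC-1 neither channel was above background.

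**Figure D3:**
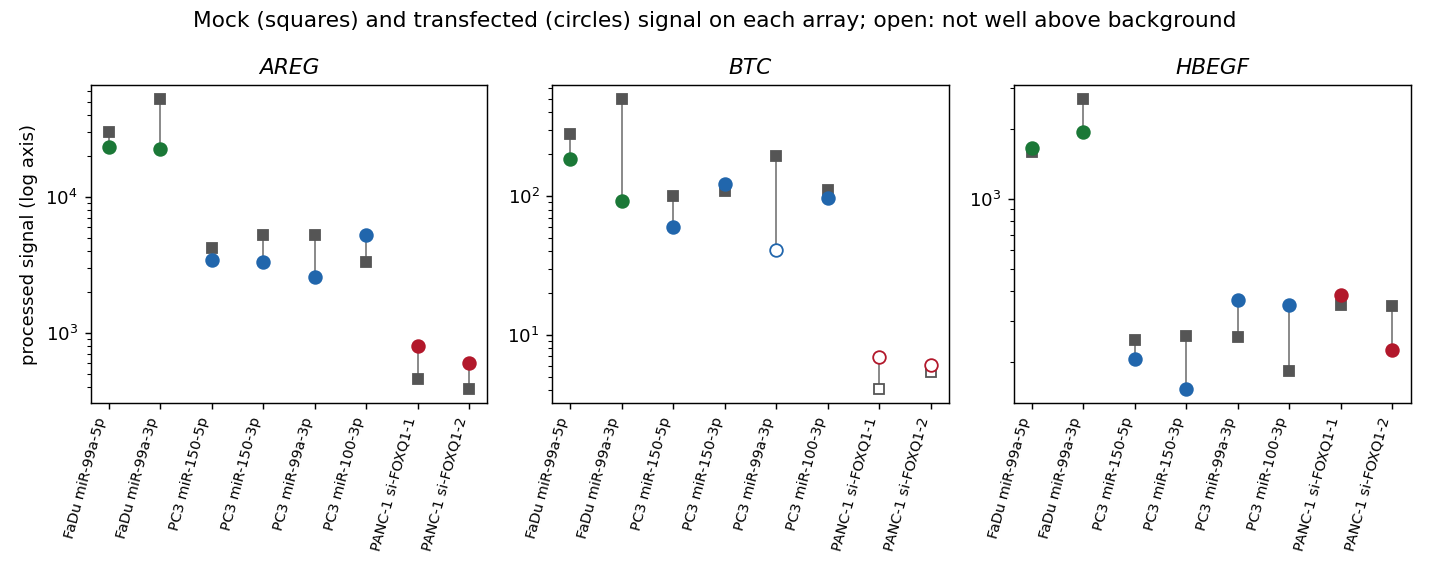
Processed signal of AREG, BTC and HBEGF on each array on a log axis, with mock cells as squares and transfected cells as circles coloured by line, and open symbols where the signal was not well above background. The transfected signal of BTC was 92.1 in FaDu and 40.7 in PC3 with miR-99a-3p, from mock signals of 497 and 194.

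The EREG probe, at chr4:75254009-75254068 of hg19, lies in the same stretch of chromosome 4 as the probes of AREG and BTC. In FaDu, where its signals were 4782 and 5283 with miR-99a-3p and 2725 and 2717 with miR-99a-5p, EREG was at 0.14 (0.20) and −0.00 (0.20), and so was not lower where AREG and BTC were called. In PC3 its mock signals were 22.2, 24.1 and 32.3 on the arrays with miR-150-5p, with miR-150-3p and with miR-99a-3p, and no Cy5 signal was well above background. The deposited ratios of −1.80, −1.76 and −1.02 met the limit, but these mock signals were under the lowest Cy5 signal called above background, so no fold is given. EREG was the only member called with miR-150-5p, 1 of 8 against 4.49% of genes lower and 0.664% higher, and with miR-150-3p, 1 of 8 against 6.68% and 2.69%. In PANC-1, EREG was at 0.43 (0.21) and 0.47 (0.21) with the 2 siRNAs.

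HBEGF was called on no array, and its ratios lay on both sides of 0 in each line. In PC3 it was at 0.94 (0.23) with miR-100-3p and 0.52 (0.22) with miR-99a-3p, and at −0.75 (0.23) with miR-150-3p and −0.27 (0.21) with miR-150-5p. The positive and negative ratios divide as the mock pairs do, and the HBEGF mock levels of 7.60 and 7.42 in the former pair were both under those of the latter, the lower of which was 7.69. Against the mean of all 4 mock channels the same ratios were 0.86, 0.27, −0.74 and 0.05, and the part of the mock channels in them was not tested further. In FaDu, HBEGF was at −0.47 (0.21) with miR-99a-3p and 0.07 (0.20) with miR-99a-5p. In PANC-1 the 2 siRNAs against the same gene gave −0.63 (0.22) with si-FOXQ1-2 and 0.14 (0.21) with si-FOXQ1-1, so that they did not share a direction.

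By its brightest probe TGFA had the smallest range of the ligands, from −0.08 to 0.40 over the 8 arrays, with spot errors of 0.21. Its highest ratios were 0.40 and 0.33 with the siRNAs in PANC-1. AREG, EREG and TGFA were thus above the mock level with both siRNAs, and none of them reached 2-fold.

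EGFR came closest to the limit without passing it. In FaDu with miR-99a-3p its signals were 3351 in mock and 1685 in transfected cells, a log2 ratio of −0.99 (0.22), just short of a call. The other 2 EGFR probes, designed to the short transcripts that encode receptors without a kinase domain, read −0.88 (0.23) and −0.95 (0.24) there, so that the 3 probes did not differ beyond their spot errors. In FaDu with miR-99a-5p the ratio was 0.06 (0.20). In PC3, EGFR was at −0.85 (0.22) with miR-150-3p, from signals of 414 and 230, and at −0.30 to −0.19 on the other 3 arrays. The other 2 probes were dim in PC3, with Cy5 above background only for NM_201283 with miR-150-5p. With the mean over the EGFR probes the ratio was −0.54 with miR-150-3p. It was −0.66 with miR-150-5p, −0.67 with miR-99a-3p and −0.71 with miR-100-3p, further below the mock level than by the brightest probe. In PANC-1 it was at 0.27 (0.21) and 0.12 (0.20).

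ERBB2 was the only member called higher. Its main probe, read from repeated spots, gave 1690 in mock and 3537 in transfected cells in PC3 with miR-99a-3p, a log2 ratio of 1.07 (0.23) with an SD of 0.03 between spots. On the other 7 arrays it stood between −0.26 and 0.20, and in FaDu with miR-99a-3p it was at 0.05 (0.20). The second ERBB2 probe, at chr17:37851136-37851195 of hg19 and designed to the transcript ENST00000584014, was far from the main probe at chr17:37884829-37884888. In FaDu with miR-99a-3p its mock signal of 254 stood against 40.1, not above background, at least 5.5-fold lower by the lowest signal above background and 3.66-fold by the highest signal not called above it. In PC3 with miR-99a-3p it read −0.76 (0.36) with the Cy5 signal not above background. The call of ERBB2 as higher thus holds for the main probe alone, and that probe was at 0.94 with normexp and loess and at 0.99 after centring the array on its median.

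The ERBB3 probes also disagreed. The brightest, designed to the short transcript NM_001005915, was at −0.37 (0.22) in FaDu with miR-99a-3p and between −0.12 and 0.27 in PC3. A probe to the full-length transcript NM_001982, at chr12:56496160-56496219 of hg19, was at 0.62 (0.22) in FaDu with miR-99a-3p and at 0.38 to 0.65 on the 4 PC3 arrays. The full-length probe was therefore above its mock level on all 4 PC3 arrays, and on neither probe was a 2-fold difference reached where both channels were measured. In PANC-1 the full-length probe was in neither channel above background, and the short-transcript probe was at −0.29 (0.33) with si-FOXQ1-1. With si-FOXQ1-2 the short-transcript probe was at −0.74 (0.41), with the Cy5 signal not above background. By the dimmest Cy5 spot well above background, 27.9, it was 1.56-fold lower. Other Cy5 spots of up to 39.8 on that array failed the call, near the mock signal of 43.5, so no firm bound holds. The ratio was −0.31 with normexp and loess and 0.06 with the mean over the ERBB3 probes.

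**Figure D4:**
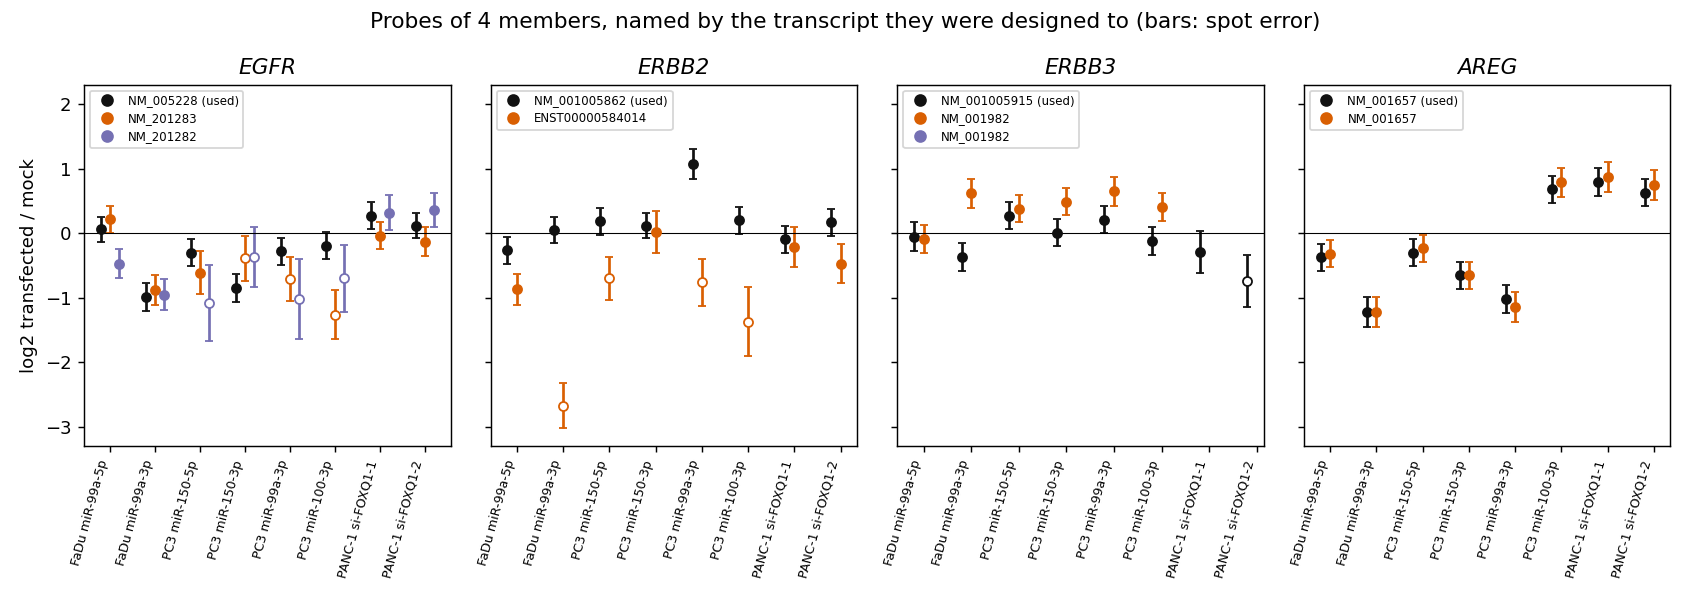
Log2 ratio of transfected over mock for each probe of EGFR, ERBB2, ERBB3 and AREG on the 8 arrays, coloured by the transcript the probe was designed to, with the spot error as bars. Open points have the Cy5 signal not well above background, and probes with neither channel above it are left out. The AREG probes overlie each other, and the ERBB2 probes lie apart with miR-99a-3p.

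No member was called on 4 arrays. With miR-99a-5p in FaDu this was 0 of 8, against 4.86% of genes lower and 0.851% higher. With miR-100-3p in PC3 it was 0 of 7, against 3.34% and 0.987%. With si-FOXQ1-1 it was 0 of 7, against 3.31% and 0.905%, and with si-FOXQ1-2 0 of 7, against 3.29% and 0.412%. With shares this low over all genes, a count over 7 or 8 members shows little. The median ratio of the members was 0.27 with si-FOXQ1-1 and 0.17 with si-FOXQ1-2, beside −0.02 and −0.01 over all detected genes.

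The pathway around the family was read from lists of 73 genes, which hold other ErbB ligands, ligand shedding, receptor adaptors and ubiquitin ligases, inhibitors, ERK-induced genes and the RAS-ERK and PI3K cascade. In FaDu with miR-99a-3p, 7 of 70 detected genes were at least 2-fold lower and 4 were higher, 10% and 5.71%, beside the 9.37% and 8.25% of all genes. They were spread over the roles of the pathway. NRG1, neuregulin, a ligand of ERBB3 and ERBB4, was at −2.63 (0.32), and NRG2, a related ligand, was higher at 1.35 (0.32). SPRY2, a feedback inhibitor, was higher at 1.01 (0.23). ADAM17, the protease that sheds AREG and TGFA, was at −1.21 (0.23). CBLB and CBL, ubiquitin ligases that direct EGFR to degradation, were at −1.97 (0.28) and −1.26 (0.24). The immediate early genes FOS and EGR1, which ERK signalling induces, were at −2.06 (0.28) and −1.25 (0.23), while CCND1, cyclin D1, was at 1.90 (0.27) and PHLDA1 at 1.19 (0.23). The ERK-induced genes therefore did not share a direction, with 3 of 15 lower and 2 higher. On the same array 5 of 7 squamous markers were at least 2-fold lower, with KRT6A at −2.83 (0.33) and DSG3 at −1.94 (0.27) and a list median of −1.46, and their part in the ratios of AREG, BTC and EGFR was not tested. In RNA of whole cultures, fewer cells of a kind and less RNA per cell cannot be told apart.

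In PC3 with miR-99a-3p, 2 of 67 detected pathway genes were lower and none was higher, 2.99% for the lower, under the share over all genes. Both were ERK-induced genes. MYC was at −1.26 (0.23) and PHLDA1 at −1.08 (0.23), the latter opposite to its ratio in FaDu. None of the ligand shedding, adaptor, inhibitor or cascade genes was called there. With miR-150-3p in PC3, 5 of 67 were lower and none higher. Among them were FOSL1 at −1.75 (0.26), the kinase MAP2K1 at −1.86 (0.27), ARAF at −1.03 (0.23) and NRG2 at −1.15 (0.23). LRIG3, listed here with the inhibitors, was at −1.12 (0.31). The share of 7.46% was near that over all genes. With miR-150-5p, 2 of 69 were lower, EPGN and NRG4, and neither was above background in both channels. That share of 2.9% was under the 4.49% over all genes.

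Elsewhere few pathway genes were called. With si-FOXQ1-1, EGR1 was at 1.63 (0.25), FOS at 1.83 (0.37) and PIK3R1, the regulatory subunit of PI3K, at −1.53 (0.27), and 3 of 67 genes were higher and 1 was lower, 4.48% and 1.49%, beside 0.905% and 3.31% of all genes. With si-FOXQ1-2 none of 67 was called in either direction, so these differences were not seen with both siRNAs. DUSP5, an ERK phosphatase, was at 1.12 (0.23) in PC3 with miR-100-3p, the only call of 65 genes. That is 1.54% higher, beside 0.987% of all genes. SPRY1, a feedback inhibitor, was at 1.01 (0.24) in FaDu with miR-99a-5p, the only call of 68 genes. That is 1.47% higher, beside 0.851% of all genes, and counts of 1 gene show little.

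For the 5 members above background in both channels of all 8 arrays, the genes with the most similar ratios over the 8 arrays were sought among 13243 such genes, as a description. The highest Pearson r with AREG was 0.977, for ZNF598, followed by PDE9A at 0.974 and PRMT2 at 0.970. For EGFR the first was EWSAT1 at 0.974 and the third SNORD27 at 0.960, with a transcript known by an Ensembl name between them. For ERBB2 these were GINM1 at 0.988, NISCH at 0.975 and TMED5 at 0.970. HBEGF was most like a transcript known by an Ensembl name at 0.957, then KCNK6 at 0.955 and TOX2 at 0.928, and TGFA most like CRNKL1 at 0.933, AK090765 at 0.932 and RBM19 at 0.928. No member of the family was among the genes most like another. The arrays share a slide and the mock RNA of each line, and ZNF598 ranged from −0.73 to −0.08 where AREG ranged from −1.22 to 0.80.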

How the data were processed

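Total RNA of mock and transfected cells was hybridized to 8 Agilent 2-colour arrays of 1 slide. Per the file headers, the authors read the scans with Agilent Feature Extraction 10.7.3.1 on a probe annotation of hg19. The deposited processed intensity of a channel was corrected for background and for dye bias by that software, and dim signals carry surrogate values. The deposited log10 ratio of Cy5 over Cy3 comes from the same run and is 0 at many spots dim in both channels, and its deposited error is a score of the scanner software. The log10 values deposited for the whole series were equal to the scanner ratios.

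Log10 ratios were converted to log2. Left out were control spots and between 81 and 178 outlier-flagged gene spots on each array. Repeated spots were averaged by probe, and 58201 probes were reduced to 43317 genes by the brightest probe over both channels. Bounds for genes dim in 1 channel used the lowest signal well above background of that array. Mock levels were Cy3 signals after Aquantile normalization (limma 3.58.1, R 4.3.3). Python 3.11.15 with pandas 2.3.3 served for the rest. The normalization and the calls were tested on simulated data. Of the gene spots, 44.5% to 49.2% were well above background in Cy3 and 37.2% to 41.8% in Cy5, and the number of arrays limits the precision. Over all probes the Pearson r of array pairs ran from −0.01 to 0.22, and was 0.03 between the miR-99a-3p arrays of FaDu and PC3.

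A limma test between mock lines had been planned. It was not made, because the median SD between mock channels of 2 lines was near that between repeated spots and the labels name no separate cultures. The members, pathway genes and markers, 105 symbols, all had a probe, and some of the markers are not reported here singly. Alternatives were another background correction, the series values, the mean over probes, outlier spots kept, centring, a common mock control, other filters and folds, and 1 mock channel left out. The members and lists were chosen with earlier results of these data known. Named were all members, FOXQ1, listed pathway genes measured in both channels and past 2-fold (at most 2 in each direction per list and array) and the 3 genes most like each member.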

Additional observations from a re-analysis of the deposited data

Results flagged for a closer look

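HBEGF differed in direction between the lines with the same microRNA. Its log2 ratio with miR-99a-3p was 0.52 (spot error 0.22) in PC3 and −0.47 (0.21) in FaDu, a difference of 0.99, with both channels above background on both arrays. There was 1 array per line, and the difference was not tested. Against the mean of the mock channels of each line the ratios were 0.27 and −0.48. Of the 7 members above background in all 4 PC3 mock channels, none had a channel that stood apart from the other 3 by the gap criterion used, and EREG and ERBB4 were not examined. That criterion seeks 1 channel apart from the other 3, so it cannot show a split of the channels into pairs.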

How the results depend on the processing

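No paired analysis was possible because no condition has a second array. The 7 pairs of member and array at least 2-fold lower became 3 with normexp (offset 50) and loess, 3 where both channels had to be well above background, 15 at 1.5-fold and 4 at 3-fold. The 1 pair higher became 0 with normexp, 0 with the mean over the probes of a gene, 0 with the arrays centred on their median, 0 at 3-fold, 3 with no filter on dim probes and 5 at 1.5-fold. The 2 members lower with miR-99a-3p in both lines became 1 with normexp, where AREG in PC3 was at −0.94, 1 with both channels above background, where BTC in PC3 was not counted, and 1 at 3-fold. Centring placed ERBB2 in PC3 with miR-99a-3p at 0.99 and EGFR in FaDu with miR-99a-3p at −1.02, on the other side of the limit. The mean over probes placed ERBB2 at 0.15 and −1.31 on these arrays. The deposited series values and kept outlier spots changed no count. No ratio of a called pair of member and array and no difference called between mock lines reversed under any alternative. Ratios without a call did reverse in some cases, such as ERBB2 in PC3 with miR-100-3p, from 0.20 to −0.58 with the mean over probes. Of 366 single ratios, 27 moved by more than their spot error, 16 of them with the mean over probes. The 366 include 61 each for the series values and for kept outlier spots. These could not move, since the series values equal the scanner ratios and no member spot was flagged. Centring moved none of its 61. The 20 calls of members between mock lines ranged from 14 to 21, and from 19 to 20 when 1 mock channel was left out. With 1 pair of PC3 mock channels alone, chosen after the data were seen, they were 19 and 20. The alternative of an adjusted p with no minimum fold was not run, since no test was made.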

Other observations

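The pairs of PC3 mock channels differed at single genes outside the family. Between channels of different pairs, 73 to 86 of 15862 genes were at least 2-fold apart, and 17 and 40 within the pairs. FOXQ1 was 1.21 to 1.34 higher on the log2 scale in the mock channels of the miR-150-5p and miR-150-3p arrays than in those of the miR-99a-3p and miR-100-3p arrays.

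ERBB4, below background throughout, gave its highest transfected signals in PC3, at 40.2 with miR-150-3p and 40.3 with miR-99a-3p, neither called well above background.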
